A study of Mus musculus with 18 samples.

Results

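The 48 genes described here encode the machinery that pulls chromosomes apart at cell division and the checkpoint that watches over it. They were listed by symbol in 9 groups by role: cyclins, CDK1 and its phosphatases; mitotic kinases and spindle assembly factors; the spindle checkpoint; centromere and kinetochore; the chromosomal passenger complex; kinesin motors; chromosome condensation and structure; anaphase and the APC/C; and cytokinesis. Each gene was read from the probe set that carried its symbol alone. This gave 47 of the 48 genes, out of 19505 genes measured in this way, and no listed gene had more than 1 such probe set. Ccnb1, which encodes cyclin B1, had none. No filter on low values was applied, so all 47 genes entered every test.

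The cells came from C57Bl/6J mice, either from the fetal liver (FL) of E13.5 embryos or from the bone marrow (BM) of adults aged 3 to 12 months. Long-term stem cells (LT-HSC), short-term stem cells (ST-HSC) and multipotent progenitors (MPP) were sorted from each site as LSK cells, which carry Kit and Sca-1 and lack lineage markers, and were divided by Cd150 and Cd48. Each of the 6 groups held 3 Affymetrix arrays, lettered a, b and c, each made from 2 ng of RNA. The free-text descriptions of the samples speak instead of transplanted marrow with guide RNAs, sgEzh2 for 4 FL arrays (FL LT-HSC a, FL ST-HSC a, FL MPP a and FL MPP b) and sgLuc for the rest. Groups were taken from the cell type labels, titles and source names, which do not carry those guides.

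Array values are log2 signals with medians of 7.68 to 7.78. Their interquartile range was 2.98 to 3.18 on 14 arrays. On 4 arrays, called narrow from here on, it was smaller: BM LT-HSC c had 2.61, the BM ST-HSC arrays b and c had 2.63 and 2.65, and FL LT-HSC b had 2.71. Of the sorting markers, Slamf1 (Cd150) read 9.12 to 9.95 in LT-HSC and 6.43 to 7.42 in MPP of both sites, with ST-HSC between them at 7.43 to 8.22. Cd48 read 12.19 to 12.35 in MPP and 9.57 to 10.27 in LT-HSC and ST-HSC, apart from 11.40 in BM LT-HSC c, which lay between the populations. That array also had the highest mean over the neutrophil markers of the 18 arrays, above the 11.42 to 11.97 of the other BM arrays. Sca-1 itself (Ly6a) had no probe set of its own.

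As background, a cell enters mitosis when cyclin B switches on CDK1, and the Polo and Aurora kinases then build the spindle. The kinetochore, a protein plate on the centromere, catches the spindle fibres, and as long as a kinetochore is unattached the checkpoint kinases and Mad and Bub proteins hold back the anaphase-promoting complex (APC/C). Once APC/C is free, securin and cyclin B are destroyed, separase cuts the cohesin rings and the cell divides. Most of these genes are transcribed mainly in G2 and M phase, and their RNA is abundant in dividing populations. Fetal liver stem cells are known to divide often and adult marrow stem cells to rest.

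Much of this transcription is known to run through 2 short promoter elements, the cell cycle homology region (searched here as TTTGAA) and the CCAAT box bound by NF-Y. RefSeq promoter windows of GRCm38.p6, from 250 bases before to 50 bases after the start of transcription, were found for 40 of the 48 genes, 39 of them measured. The windows of the pair of genes with the largest FL to BM difference in ST-HSC, and of the pair with the smallest among genes in the promoter table, are shown 5' to 3' so that this difference can be set beside the elements. Capitals mark TTTGAA and CCAAT on either strand (as TTCAAA and ATTGG on the other strand); these elements do not overlap each other here. Bub1b lies at chr2:118597961-118598260 on the plus strand, Bub1 at chr2:127831810-127832109 on the minus strand, Mki67 at chr7:135716330-135716629 on the minus strand and Pttg1 at chr11:43425932-43426231 on the minus strand.
Bub1b: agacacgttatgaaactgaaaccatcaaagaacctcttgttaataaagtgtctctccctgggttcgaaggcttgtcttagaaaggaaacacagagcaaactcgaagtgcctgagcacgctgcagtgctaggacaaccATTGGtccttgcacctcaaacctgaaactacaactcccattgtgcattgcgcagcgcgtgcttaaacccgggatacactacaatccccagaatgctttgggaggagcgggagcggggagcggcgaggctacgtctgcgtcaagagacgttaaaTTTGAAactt
Bub1: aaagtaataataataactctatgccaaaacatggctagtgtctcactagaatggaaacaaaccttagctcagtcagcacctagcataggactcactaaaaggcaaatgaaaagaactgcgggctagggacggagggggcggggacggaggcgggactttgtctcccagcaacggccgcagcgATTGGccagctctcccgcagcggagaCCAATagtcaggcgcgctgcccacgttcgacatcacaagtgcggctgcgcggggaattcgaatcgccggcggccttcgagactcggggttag
Mki67: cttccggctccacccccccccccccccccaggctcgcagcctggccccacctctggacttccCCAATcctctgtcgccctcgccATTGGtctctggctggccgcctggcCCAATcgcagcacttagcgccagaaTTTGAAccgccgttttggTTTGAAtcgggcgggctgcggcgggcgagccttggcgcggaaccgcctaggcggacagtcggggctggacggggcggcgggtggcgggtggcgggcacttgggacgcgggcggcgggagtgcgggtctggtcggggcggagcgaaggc
Pttg1: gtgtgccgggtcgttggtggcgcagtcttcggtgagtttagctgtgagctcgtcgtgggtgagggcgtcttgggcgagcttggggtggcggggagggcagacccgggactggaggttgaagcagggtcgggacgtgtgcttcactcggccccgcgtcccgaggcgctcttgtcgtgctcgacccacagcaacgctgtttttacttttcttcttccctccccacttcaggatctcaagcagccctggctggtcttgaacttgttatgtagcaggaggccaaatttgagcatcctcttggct

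The Bub1b window held 1 TTTGAA and 1 CCAAT, the Bub1 window 0 and 2, the Mki67 window 2 and 3, and the Pttg1 window neither. TTTGAA stood in 29 of the 40 windows (72.5%), against 18.1% of the first windows of 27025 genes. CCAAT was in 29 windows as well (72.5% against 37.9%), and 19 held 2 or more of them (47.5% against 12.2%). Both elements were present in 25 windows (62.5% against 7.12%). Neither was found in 7 (17.5% against 51.1%), those of Birc5, Mad2l1, Ncaph, Nuf2, Nusap1, Plk4 and Pttg1. Genes with and without an element had close medians of the FL to BM difference in ST-HSC. The median log2 difference was 0.83 over the 29 measured genes with TTTGAA and 0.87 over the 10 without, and 0.86 over the 28 with CCAAT and 0.81 over the 11 without. These are counts of letters in a window and carry no test.

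Across the 18 arrays the 47 genes were lowest in BM ST-HSC, while arrays of the other 5 groups lay nearer together and in part overlapped. BM ST-HSC had the lowest group mean for 47 of 47 genes. Without the narrow arrays BM ST-HSC was array a alone, below BM LT-HSC for 39 of the 47 genes and above BM MPP for 3. The share of all genes lowest or highest in each group was not counted. The highest group mean was that of FL MPP for 27 genes, FL LT-HSC for 14, BM MPP for 5 and BM LT-HSC for 1, Cdc25b. The lowest of all 18 arrays was BM ST-HSC c for 40 genes, whereas this array was lowest for 9.47% of all genes. It was BM ST-HSC b for 5 genes, FL LT-HSC b for Cdc25b and BM LT-HSC a for Aurka.

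Set against each gene's own mean over the 18 arrays, the median of the 47 genes on FL arrays lay between -0.05 in FL ST-HSC c and 0.41 in FL MPP c. In BM MPP it was 0.03, 0.22 and 0.16 on arrays a, b and c, and in BM LT-HSC -0.17, -0.03 and 0.07. In BM ST-HSC it was -0.36, -0.85 and -1.16. All 3 BM ST-HSC arrays were therefore below every other array, but the 2 narrow arrays lay much lower than array a. As these are bulk samples, fewer cycling cells and less of these RNAs per cell cannot be told apart.

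**Figure D1:**
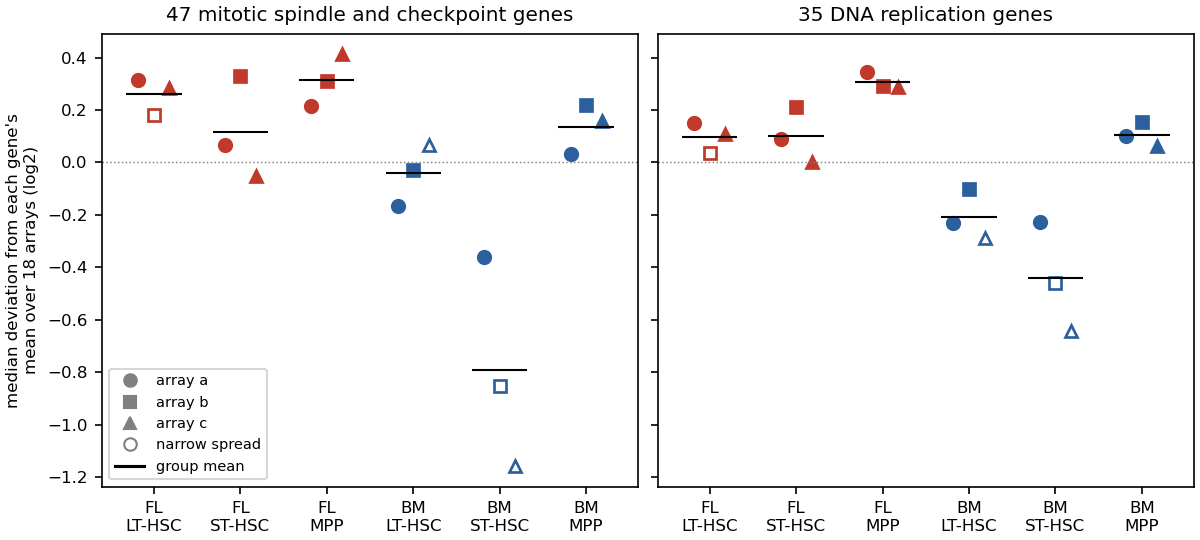
Each point is 1 array, and its height is the median over genes of the deviation from that gene's mean over the 18 arrays (log2), for the 47 mitotic genes on the left and 35 DNA replication genes on the right; shapes are the array letters, open points the narrow arrays, lines the group means. On the left BM ST-HSC runs from -0.36 to -1.16 and every other array lies at -0.17 or above.

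**Figure D2:**
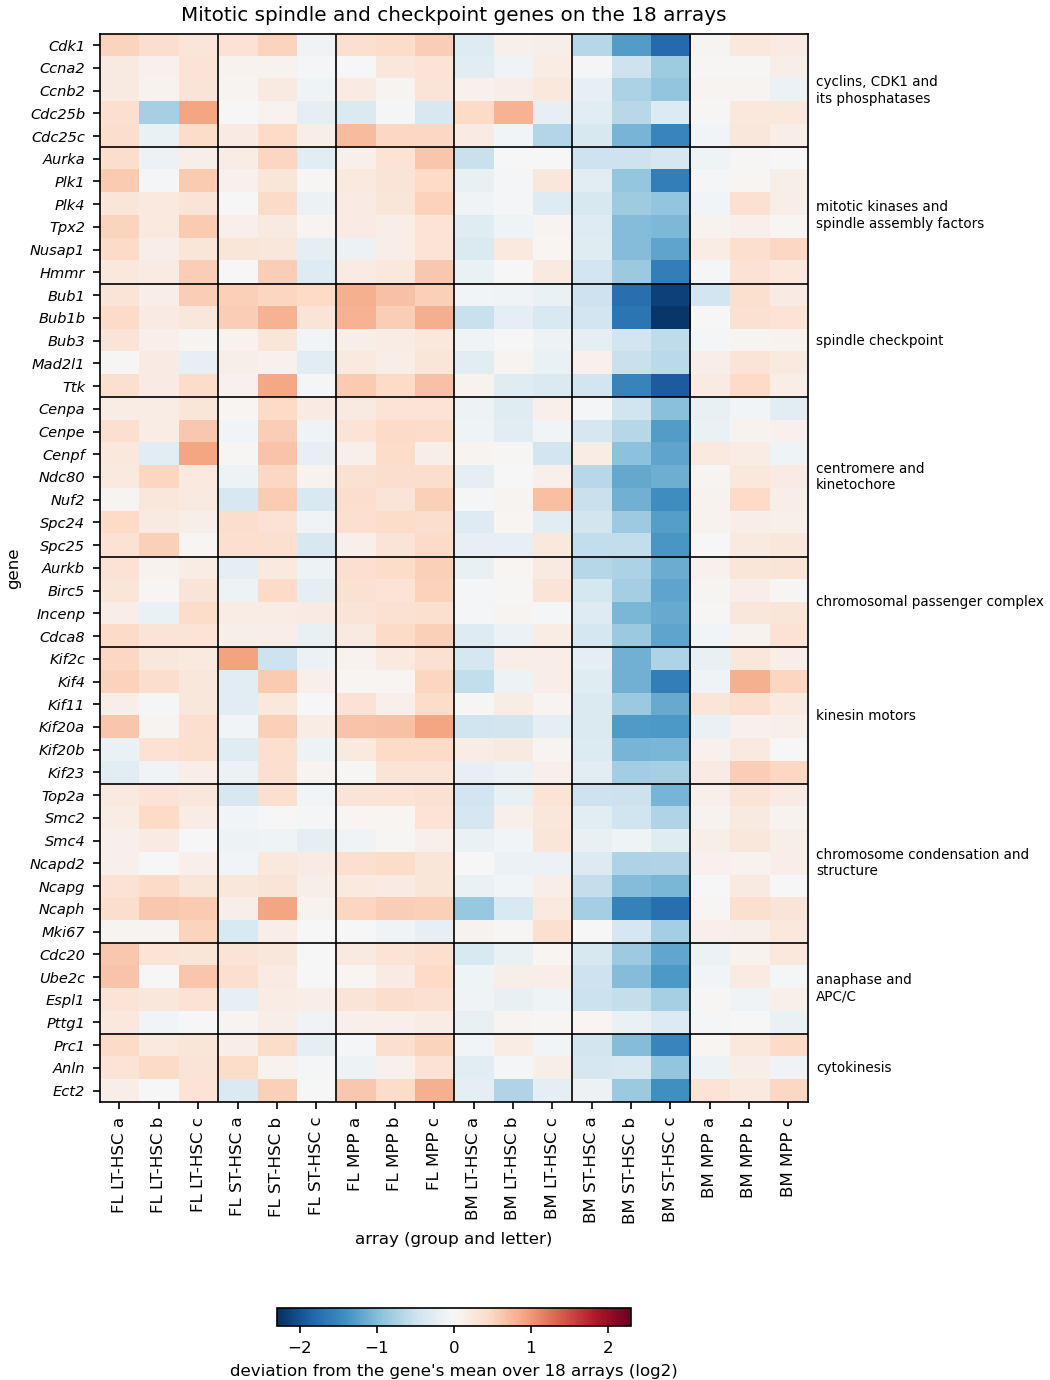
Rows are the 47 genes in their role groups, columns the 18 arrays, and colour the deviation from the gene's mean over the 18 arrays on the log2 scale. The blue columns of BM ST-HSC b and c run through nearly all rows and are darkest for Bub1, Bub1b, Ttk, Ncaph and Cdk1, while Smc4 and Pttg1 are pale throughout.

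Genes differed widely in how much they varied. Bub1b spanned 3.08 log2 units from its lowest to its highest array and Bub1 2.97. Pttg1, the securin gene, spanned 0.56 and Smc4, a core subunit of condensin, 0.55. Among the role groups the spindle checkpoint had the lowest medians in BM ST-HSC, at -0.44, -1.54 and -1.92 on arrays a, b and c. Chromosome condensation and structure lay nearest to 0 on arrays b and c, with -0.31, -0.49 and -0.78 on the 3 arrays.

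FL against BM in ST-HSC gave the widest difference. Differences are FL minus BM on the log2 scale with the standard error of a limma fit of all 18 arrays, and a gene counts as called when its Benjamini-Hochberg adjusted p over the 19505 genes is under 0.05. In ST-HSC 39 of the 47 genes were called higher in FL and none lower, against 12.1% of all genes called higher. The median difference was 0.86, against -0.00 over all genes, and 16 of the called genes differed by at least 2-fold. For 39 genes the 3 FL arrays all lay above the 3 BM arrays, which was so for 18.8% of all genes. The count rests on the narrow arrays: without the 4 of them, 7 genes were called, all among the 39, against 2.66% of all genes, and the median was 0.45. BM ST-HSC then consists of array a alone, which is assumed to vary like the other groups. Leaving out BM ST-HSC c alone gave 22 called genes, and the share of all genes called in that fit was not counted.

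The spindle checkpoint genes led. Bub1b, which encodes the checkpoint protein BubR1, read 9.25, 9.47 and 8.97 in FL ST-HSC and 8.23, 6.99 and 6.43 in BM ST-HSC. Every BM array was below every FL array, and arrays b and c were far below array a. The difference was 2.01 ± 0.29 (4.03-fold, adjusted p = 0.00016) and 1.0 without the narrow arrays (adjusted p = 0.00803). Bub1, the kinase that recruits the other checkpoint proteins to the kinetochore, showed the same order of arrays, with 9.61, 9.56 and 9.53 in FL and 8.59, 7.33 and 6.91 in BM. It differed by 1.96 ± 0.29 (3.88-fold, adjusted p = 0.000211), and by 0.98 without the narrow arrays (adjusted p = 0.0199).

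Ttk, the kinase that starts the checkpoint signal, read 8.87, 9.65 and 8.71 in FL ST-HSC and 8.32, 7.22 and 6.84 in BM ST-HSC. Its groups did not overlap, and it differed by 1.62 ± 0.28 (3.07-fold, adjusted p = 0.00095), but by 0.76 without the narrow arrays, which did not pass (adjusted p = 0.124). Bub3, the partner that carries both Bub kinases to the kinetochore, was higher by 0.52 ± 0.12. Mad2l1, whose protein binds and blocks the APC/C activator Cdc20, did not pass at 0.34 ± 0.17 (adjusted p = 0.165). Its highest BM array, BM ST-HSC a at 11.43, was above the FL array c at 11.08.

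**Figure D3:**
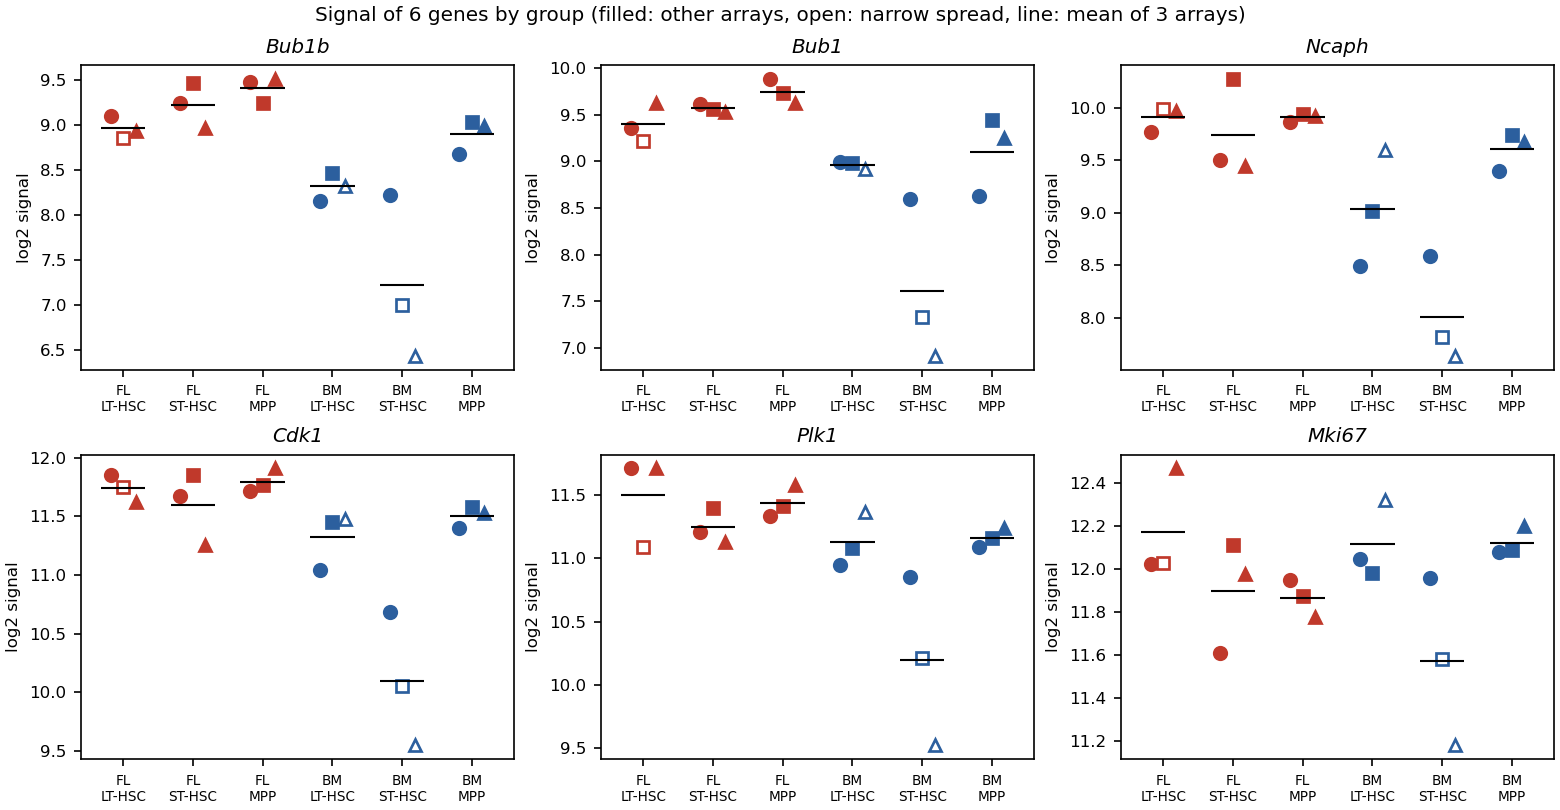
Each panel shows 1 gene, with the log2 signal of every array by group, lines at the mean of 3 arrays, circles, squares and triangles for arrays a, b and c, and open symbols for the narrow arrays; the vertical scale differs between panels. For Bub1b, Bub1, Ncaph, Cdk1 and Plk1 the BM ST-HSC arrays b and c are the lowest of 18, and for Mki67 the groups overlap.

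Of the cyclins, CDK1 and its phosphatases, 4 of 5 were called higher in FL ST-HSC. Cdk1, the kinase of mitotic entry, read 11.68, 11.85 and 11.26 in FL and 10.68, 10.06 and 9.55 in BM. The groups did not overlap and differed by 1.5 ± 0.22 (2.82-fold, adjusted p = 0.000156), and by 0.91 without the narrow arrays (adjusted p = 0.0174). Cdc25c, a phosphatase that activates CDK1, differed by 1.24 ± 0.25, Ccnb2 (cyclin B2) by 0.66 ± 0.15 and Ccna2 (cyclin A2) by 0.49 ± 0.17. None of these 3 passed without the narrow arrays. Cdc25b, another such phosphatase, did not pass in either fit.

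All 6 mitotic kinases and spindle assembly factors were called. Hmmr, a spindle pole protein, differed by 1.05 ± 0.25 and Plk1, the Polo kinase, by 1.05 ± 0.24. The spindle fibre binder Nusap1 (0.94 ± 0.21), the Aurora A activator Tpx2 (0.90 ± 0.17), the centriole kinase Plk4 (0.80 ± 0.17) and Aurora A itself, Aurka (0.57 ± 0.19), followed. Plk1 read 11.21, 11.40 and 11.13 in FL and 10.85, 10.22 and 9.53 in BM, so that the groups were apart although array a lay close to FL. None of the 6 passed without the narrow arrays, and 4 had an unadjusted p under 0.05.

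Of the 7 centromere and kinetochore genes 6 were called. The 4 subunits of the NDC80 complex, which grips the spindle fibre, were among them, with differences of 1.13 ± 0.16 for Ndc80, 1.06 ± 0.18 for Spc24, 0.97 ± 0.25 for Nuf2 and 0.95 ± 0.23 for Spc25. Ndc80 read 9.62, 10.21 and 9.82 in FL and 9.09, 8.55 and 8.62 in BM, and was the only one of the 4 to pass without the narrow arrays (0.79, adjusted p = 0.0184). Cenpe, a kinetochore motor, differed by 0.91 ± 0.20, and Cenpa, the histone that marks the centromere, by 0.72 ± 0.18. Cenpf, a large kinetochore protein, overlapped between the groups and did not pass at 0.83 ± 0.31 (adjusted p = 0.0746). Its difference without the narrow arrays was -0.00.

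The chromosomal passenger complex, which corrects faulty attachments, was called in 4 of 4 genes with differences in a close range. These were 1.01 ± 0.18 for the scaffold Incenp, 0.86 ± 0.18 for Cdca8 (borealin), 0.83 ± 0.19 for Birc5 (survivin) and 0.80 ± 0.15 for Aurkb, the Aurora B kinase. Their differences were 0.43 to 0.61 when the narrow arrays were left out and none passed, with 3 at an unadjusted p under 0.05.

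Of the 6 kinesin motors 5 were called. Kif20a, a motor of the dividing cell's midzone, read 9.11, 9.72 and 9.35 in FL ST-HSC and 8.85, 7.88 and 7.86 in BM ST-HSC and differed by 1.20 ± 0.22. Kif4, a motor on chromosome arms, differed by 1.16 ± 0.30, the spindle-separating motor Kif11 by 0.77 ± 0.18, and the cytokinesis motors Kif20b and Kif23 by 0.81 ± 0.20 and 0.71 ± 0.18. Kif2c, which shortens spindle fibres at the centromere, did not pass at 0.78 ± 0.28. Its FL arrays spread from 8.32 to 9.72, around the BM array a at 8.58. None of the 6 passed without the narrow arrays.

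Genes of the condensin complex covered a wide range. The condensin I subunits Ncaph, Ncapg and Ncapd2 differed by 1.73 ± 0.27, 1.09 ± 0.14 and 0.69 ± 0.13 and were called. The core subunits that condensin I and II share, Smc2 (0.43 ± 0.16, adjusted p = 0.0684) and Smc4 (0.04 ± 0.12, adjusted p = 0.847), did not pass. The differences between subunits were not tested against each other, and without the narrow arrays Ncapd2 did not pass (0.43, adjusted p = 0.115). Ncaph read 9.50, 10.27 and 9.44 in FL and 8.58, 7.81 and 7.64 in BM, a 3.32-fold difference (adjusted p = 0.000276) that was 1.16 without the narrow arrays (adjusted p = 0.0172). Smc4 read 11.53, 11.55 and 11.43 in FL and 11.47, 11.55 and 11.37 in BM, so the groups lay on top of each other. Top2a, the topoisomerase that untangles sister chromatids, differed by 0.66 ± 0.20 and was called. Mki67, the gene of the Ki-67 protein that coats mitotic chromosomes and is stained to count cycling cells, did not pass at 0.33 ± 0.18 (adjusted p = 0.209). Its readings of 11.61, 12.11 and 11.98 in FL and 11.96, 11.58 and 11.18 in BM overlapped.

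Among the anaphase and APC/C genes 3 of 4 were called. Ube2c, an ubiquitin-conjugating enzyme of APC/C, differed by 1.12 ± 0.20, the activator Cdc20 by 0.99 ± 0.18 and separase, Espl1, by 0.65 ± 0.12. Pttg1, the securin that restrains separase, did not pass at 0.18 ± 0.12 (adjusted p = 0.308), with 10.94, 10.999 and 10.79 in FL and 10.92, 10.71 and 10.56 in BM. The 3 cytokinesis genes were called, namely Prc1 (1.10 ± 0.22), which bundles midzone fibres, Ect2 (0.87 ± 0.26), the activator of the contractile ring, and Anln (0.70 ± 0.17), a scaffold of that ring. Ect2 was called although its groups overlapped. Without the narrow arrays its difference was 0.20, and none of the 3 passed.

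Over the 47 genes the ST-HSC difference became smaller without the narrow arrays in 46, the exception being Aurka. The 7 genes that passed both with and without them were Bub1b, Bub1, Ncaph, Cdk1, Ndc80, Ube2c and Ncapg. The 8 that did not pass with all arrays were Cenpf, Kif2c, Smc2, Cdc25b, Mad2l1, Mki67, Pttg1 and Smc4, and none of these passed without the narrow ones.

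**Figure D4:**
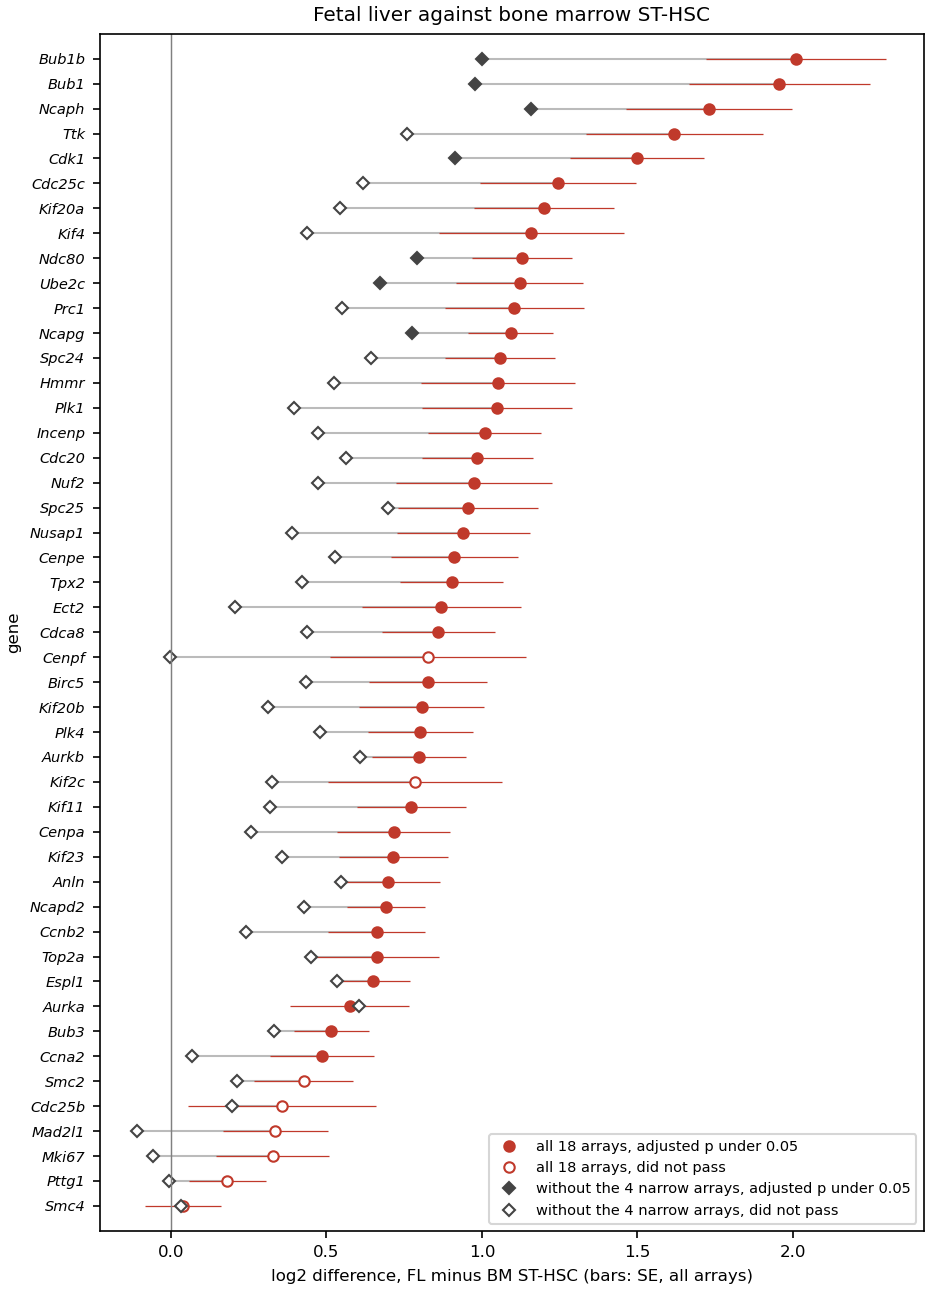
Log2 difference of FL minus BM ST-HSC for each of the 47 genes, sorted by size, with red circles for all 18 arrays (bars are standard errors) and grey diamonds for the fit without the 4 narrow arrays; filled symbols have an adjusted p under 0.05. The circles run from 0.04 for Smc4 to 2.01 for Bub1b, with 39 filled, and the diamonds lie to their left in 46 genes, with 7 filled.

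FL against BM in LT-HSC pointed the same way with smaller values. The difference was above 0 for 45 of 47 genes with a median of 0.35, and the 3 FL arrays all lay above the 3 BM arrays for 22 genes, as they did for 11% of all genes. A single gene passed, against 3.08% of all genes called higher: Espl1, which read 10.02, 9.96 and 10.04 in FL and 9.63, 9.53 and 9.60 in BM. The groups were tight and apart, and differed by 0.42 ± 0.12 (adjusted p = 0.0395). Limma gave an unadjusted p under 0.05 for 13 genes, against 19.5% of all genes.

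The 5 largest LT-HSC differences were those of Ncaph (0.87 ± 0.27, adjusted p = 0.0533), Kif20a (0.73 ± 0.22, 0.0579), Bub1b (0.65 ± 0.29, 0.218), Kif4 (0.57 ± 0.30, 0.314) and Cdc20 (0.56 ± 0.18, 0.0673). Ncaph read 9.77, 9.99 and 9.97 in FL and 8.50, 9.01 and 9.60 in BM, where the narrow array c came close to FL. Bub1b was at 9.11, 8.86 and 8.94 in FL and at 8.15, 8.47 and 8.33 in BM, with a clear gap between the groups. The mitotic cyclin gene Ccnb2, by contrast, overlapped at 11.62, 11.50 and 11.71 in FL and 11.52, 11.56 and 11.66 in BM.

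Without the 4 narrow arrays, of which 2 are LT-HSC arrays (1 FL and 1 BM) and 2 are BM ST-HSC arrays that enter only through the shared error, 10 genes were called higher, against 3.65% of all genes. Leaving out the 2 BM ST-HSC arrays alone gave 6. The 10 genes were Ncaph (1.11), Kif20a (0.95), Tpx2 (0.74), Bub1b (0.71), Cdc20 (0.71), Plk1 (0.70), Cenpe (0.68), Ube2c (0.63), Cdca8 (0.59) and Ncapg (0.42). Espl1 was not among them, at 0.45 with adjusted p = 0.0575. The median of the 47 differences was 0.42 in that fit. With 1 array left out at a time the count was 6 without BM ST-HSC a (against 3.93% of all genes), 3 without BM ST-HSC c or BM LT-HSC c, and 2 without FL LT-HSC b or FL ST-HSC b. It was 0 without any 1 of 10 others, namely FL LT-HSC a and c, FL MPP a, b and c, BM ST-HSC b, BM MPP a and c, and BM LT-HSC a and b. Among these fits the share of all genes was counted only without the 4 narrow arrays and without BM ST-HSC a.

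FL against BM in MPP was the smallest of the 3. No gene was called in limma, against 5.47% of all genes called in either direction, 4 genes had an unadjusted p under 0.05 (against 15.8% of all genes), and limma with array weights called 6, against 10% of all genes called higher. The median difference was 0.19 and 40 of 47 differences were above 0. FL arrays all lay above BM arrays for 22 genes, against 19.1% of all genes. The 5 largest differences were those of Kif20a (0.73 ± 0.22, adjusted p = 0.0736), Bub1 (0.64 ± 0.29, 0.283), Bub1b (0.52 ± 0.29, 0.44), Cdc25c (0.44 ± 0.25, 0.44) and Cenpa (0.44 ± 0.18, 0.219).

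Kif20a read 9.84, 9.85 and 10.09 in FL MPP and 9.02, 9.28 and 9.29 in BM MPP, with no overlap. The same 5 genes were called without the narrow arrays, against 4.92% of all genes called higher. Neither MPP group holds a narrow array, so the differences themselves were the same in both fits and their errors fell, for Kif20a from 0.22 to 0.15. For Cdc25b (-0.42), Mki67 (-0.26) and Smc4 (-0.16) the FL MPP arrays all lay below the BM MPP arrays, and none of the 3 passed. The share of all genes with arrays apart in that direction was not counted, so their order alone shows no difference. In ST-HSC the order of Cdc25b was the opposite, with all FL arrays above all BM arrays, but the difference between the populations did not pass (0.77 ± 0.43, adjusted p = 0.431). Leaving out BM ST-HSC a, which is no array of this comparison, gave 2 called genes, against 2.35% of all genes.

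Averaged over the 3 populations, 35 genes were called higher in FL and none lower, against 15.9% of all genes called higher. The median was 0.47. All 35 were among the 39 of ST-HSC, whose arrays they share. Leading the average were Bub1b (1.06 ± 0.17, 2.08-fold, adjusted p = 0.000145), Bub1 (1.01 ± 0.17, 2.02-fold, 0.000225), Ncaph (0.97 ± 0.15, 1.96-fold, 0.000143), Kif20a (0.88 ± 0.13, 1.85-fold, 6.77e-05) and Ttk (0.81 ± 0.16, 1.75-fold, 0.00125). By role, called genes were 4 of 5 cyclins, CDK1 and phosphatases, 5 of 6 kinases and assembly factors, 4 of 5 checkpoint genes and 5 of 7 centromere and kinetochore genes. They were also 4 of 4 passenger complex genes, 3 of 6 kinesins, 4 of 7 condensation genes, 3 of 4 anaphase genes and 3 of 3 cytokinesis genes.

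Without the narrow arrays 30 of these 35 genes were called and no others, against 11.7% of all genes, with a median of 0.37. Without BM ST-HSC b and c alone 23 were called. The share of all genes called without BM ST-HSC b and c was not counted. In 12 of the 47 genes, and in 4.35% of all genes, the FL arrays lay above the BM arrays in each of the 3 populations: Bub1, Bub1b, Bub3, Cdk1, Cenpa, Cenpe, Espl1, Kif20a, Ncaph, Ndc80, Spc24 and Tpx2. Those furthest from a difference in the average were Mki67 (0.04 ± 0.11), Smc4 (-0.01 ± 0.07) and Cdc25b (-0.08 ± 0.17). Cdc25b was also the gene with the widest spread inside FL LT-HSC, at 8.56, 7.41 and 9.08, where the narrow array b stood alone.

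**Figure D5:**
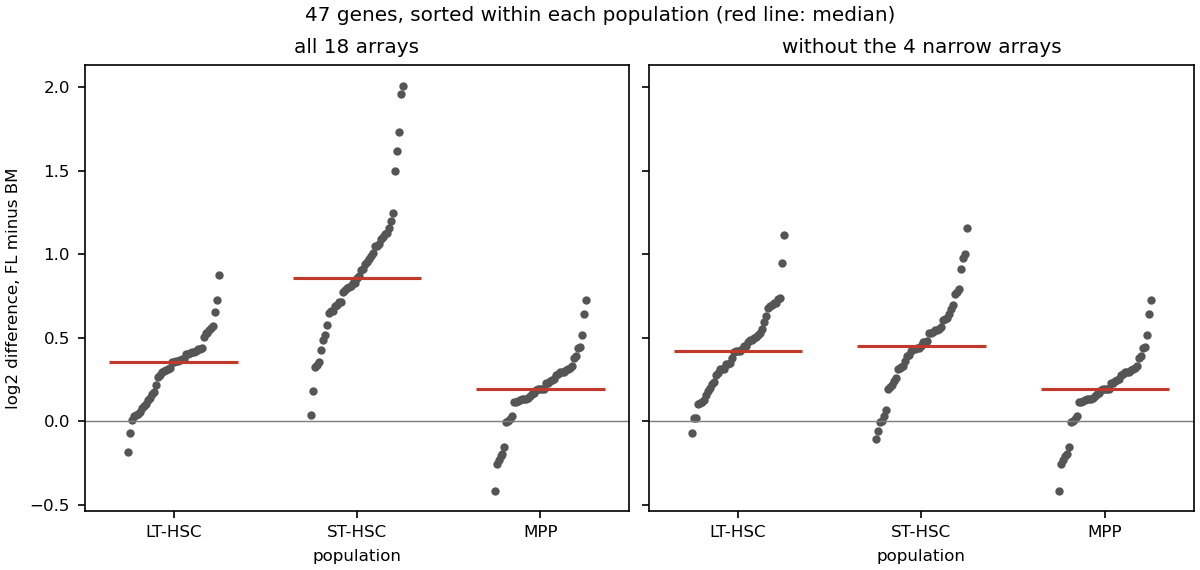
Each dot is the log2 difference of FL minus BM for 1 of the 47 genes, sorted within LT-HSC, ST-HSC and MPP, with a red line at the median, from all 18 arrays on the left and without the 4 narrow arrays on the right. On the left the medians are 0.35, 0.86 and 0.19 and on the right 0.42, 0.45 and 0.19.

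Whether the FL to BM difference itself differed between populations was tested as an interaction in the same limma fit. It was larger in ST-HSC than in LT-HSC for 46 of 47 genes and larger in ST-HSC than in MPP for 46, with medians of 0.59 and 0.70 for the difference of differences. Of all 19505 genes 9683 and 9790 had these directions. No gene passed in either test, against 0.379% and 0.185% of all genes, but 21 and 30 genes had an unadjusted p under 0.05, against 12.6% and 13.1% of all genes. The largest of ST-HSC against LT-HSC was that of Bub1 (1.52 ± 0.41, adjusted p = 0.143) and of ST-HSC against MPP that of Bub1b (1.49 ± 0.41, adjusted p = 0.157). When the 4 narrow arrays were left out, the difference was larger in ST-HSC than in LT-HSC for 28 of 47 genes and than in MPP for 40.

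With array weights 15 and 37 genes passed these interaction tests, against 5.4% and 9.71% of all genes called higher in that fit. The weights were 0.25 for BM ST-HSC a and 1.96 for BM ST-HSC c, so the fit then leaned on the narrow arrays b and c. Without BM ST-HSC a 10 and 17 genes passed, against 1.05% and 1.34% of all genes, and without BM LT-HSC c 2 passed the test against MPP. For the last fit the share of all genes was not counted. Without the 4 narrow arrays the medians were 0.09 and 0.29, no gene passed, and 0 and 5 genes had an unadjusted p under 0.05, against 9.56% and 9.97% of all genes. The Bub1 value was then 0.47 (adjusted p = 0.679) and that of Bub1b 0.48 (adjusted p = 0.569). Between LT-HSC and MPP no gene passed with all arrays, against 0.543% of all genes, none had an unadjusted p under 0.05 and the median was 0.14. When the 4 narrow arrays were left out none passed either, 7 genes had an unadjusted p under 0.05, against 10.6% of all genes, and the median was 0.26. The largest was that of Kif4, at 0.78 ± 0.42 with all arrays (adjusted p = 0.835) and 0.94 without the narrow ones (adjusted p = 0.341).

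Within the adult marrow the ST-HSC arrays were below both neighbours. ST-HSC were lower than MPP in 36 of 47 genes and higher in none, against 4.79% of all genes called lower, with a median of -0.93. The largest differences were those of Bub1b (-1.68 ± 0.29, adjusted p = 0.00276), Ncaph (-1.59 ± 0.27, 0.00216), Ttk (-1.57 ± 0.28, 0.00371), Bub1 (-1.49 ± 0.29, 0.00612) and Cdk1 (-1.40 ± 0.22, 0.00123). Bub1b read 8.67, 9.03 and 8.99 in BM MPP, all above the ST-HSC arrays. These comparisons use the same BM ST-HSC arrays as those with FL and are not independent of them. B cell markers had the same order, with list means of 8.13 to 8.38 in BM ST-HSC, 9.03 to 10.12 in BM LT-HSC and 9.35 to 10.17 in BM MPP. Of the 6 measured, 4 were lower in ST-HSC than in MPP and 4 were lower than in LT-HSC, against 4.79% and 1.21% of all genes. Jchain led them (-3.59 ± 0.44 against MPP, adjusted p = 0.000214). Of 6 macrophage markers, 1 was higher in LT-HSC than in ST-HSC, C1qa (2.11 ± 0.26, adjusted p = 0.000179). The part of such cells in the marrow differences was not tested. With the narrow arrays left out 3 genes passed, against 1.16% of all genes: Aurkb (-0.88), Ndc80 (-0.81) and Ncapg (-0.61). The count was 18 without BM ST-HSC c and 19 without BM MPP b, with the share of all genes not counted in either fit.

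LT-HSC of the marrow were higher than its ST-HSC in 16 genes and lower in none, against 1.21% of all genes called higher, with a median of 0.74. The 5 largest differences were those of Bub1 (1.35 ± 0.29, adjusted p = 0.0234), Nuf2 (1.26 ± 0.25, 0.0141), Cdk1 (1.23 ± 0.22, 0.0056), Ttk (1.13 ± 0.28, 0.0521) and Bub1b (1.10 ± 0.29, 0.0638), of which the last 2 did not pass. Cdk1 read 11.05, 11.46 and 11.48 in BM LT-HSC, above each ST-HSC array. The other 13 called genes were Ccnb2, Tpx2, Ndc80, Aurkb, Birc5, Incenp, Cdca8, Kif11, Kif20b, Ncapg, Ube2c, Espl1 and Prc1, which include the whole passenger complex. Without the narrow arrays limma called none, 8 genes had an unadjusted p under 0.05 (against 11.1% of all genes) and the median was 0.23. The count was 3 without BM ST-HSC c, 4 without BM ST-HSC b, 7 without BM LT-HSC b and 34 without BM ST-HSC a, against 2.6% of all genes. The share of all genes was counted for the last fit only.

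Between LT-HSC and MPP of the marrow no gene was called, against 4.57% of all genes in either direction, with a median of -0.19. In limma 3 genes had an unadjusted p under 0.05, against 16.7% of all genes, and array weights called 3, against 4.12% of all genes called lower. Without the narrow arrays Ncaph (-0.85), Ect2 (-0.79) and Bub1b (-0.58) were lower in LT-HSC, against 3.17% of all genes called lower. Ect2 read 7.72, 7.27 and 7.73 in BM LT-HSC and 8.26, 8.17 and 8.43 in BM MPP, with no overlap, and with all arrays its difference was -0.71 ± 0.26 (adjusted p = 0.144).

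Within the fetal liver the 3 populations lay close together. No gene was called between LT-HSC and MPP, between LT-HSC and ST-HSC or between ST-HSC and MPP, against 3.4%, 0.559% and 2.26% of all genes in either direction. In these comparisons 1, 1 and 4 genes had an unadjusted p under 0.05 in limma, against 14.1%, 8.76% and 13.4% of all genes, and array weights called 0, 0 and 4, the last against 4.03% of all genes called lower. Median differences were -0.05, 0.17 and -0.18, in the same order. The largest differences were -0.47 ± 0.26 for Ect2 between LT-HSC and MPP, 0.32 ± 0.17 for Tpx2 between LT-HSC and ST-HSC, and -0.55 ± 0.26 for Ect2 between ST-HSC and MPP.

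Without the narrow arrays Cdc25b was higher in FL LT-HSC than in FL MPP (0.89 ± 0.17, adjusted p = 0.00355, against 3.48% of all genes called higher). This rests on FL LT-HSC b, its lowest reading of the 18 arrays, being left out, and leaving out that array alone also gave 1 call (share of all genes not counted). Kif20a (-0.53 ± 0.15, adjusted p = 0.0444) and Aurkb (-0.49 ± 0.13, adjusted p = 0.0317) were then lower in FL ST-HSC than in FL MPP, against 2.37% of all genes called lower. Aurkb read 10.90, 11.35 and 11.002 in FL ST-HSC and 11.50, 11.55 and 11.67 in FL MPP, without overlap.

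Other genes of mitosis were taken from 7 further lists of 106 genes, 102 of them measured. In the average of FL against BM 58 were higher in FL and 2 lower, against 15.9% and 9.26% of all genes, with a median of 0.28. In ST-HSC 57 were higher, against 12.1% of all genes, and 1 was lower, with a median of 0.56. Without the narrow arrays, which leaves array a alone in BM ST-HSC, their medians were 0.19 in the average and 0.27 in ST-HSC. Outer kinetochore and checkpoint genes were called in 16 of 18 cases, led by Trip13, a checkpoint ATPase (0.89 ± 0.10), Ska3 (0.79 ± 0.11) and Ska1 (0.58 ± 0.11), subunits of a complex on the spindle fibre. Inner kinetochore genes followed with 11 of 16, among them Cenpk (0.70 ± 0.13), Cenph (0.63 ± 0.11) and Cenpn (0.57 ± 0.10), and 1 was lower, the CENP-A chaperone Hjurp (-0.28 ± 0.08, a gene named after its value was seen).

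Counts in the other lists were lower, with 10 of 17 for APC/C subunits and their partners, 7 of 15 for motors and spindle factors, 5 of 13 for condensin, cohesin and its regulators and 3 of 5 for cytokinesis. In the same average 15.9% of all genes were called higher and 9.26% lower. Of 18 genes of G2/M transcription and CDK1 control 6 were higher and 1 was lower. The highest were Mybl2 (0.74 ± 0.15), the B-Myb factor that activates these promoters, and Mastl (0.72 ± 0.10), the kinase that restrains the phosphatase opposing CDK1. The gene called lower there was Rbl2 (-0.78 ± 0.06, adjusted p = 3.05e-08), which encodes p130, the pocket protein of the DREAM complex that represses G2/M genes in resting cells. Rbl2 read 10.55, 10.47 and 10.50 in FL ST-HSC and 11.41, 11.36 and 11.39 in BM ST-HSC, where the narrow arrays b and c lay beside array a.

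DNA replication genes, which act in S phase, gave 27 of 35 called higher in the average, 24 in ST-HSC, 9 in LT-HSC and 1 in MPP. Their medians were 0.38, 0.55, 0.33 and 0.21. Of all genes 15.9%, 12.1% and 3.08% were called higher in the average, ST-HSC and LT-HSC. In MPP 375 of all 19505 genes were called higher. In LT-HSC these 9 calls stood beside 1 among the 47 mitotic genes with all arrays. Without the narrow arrays, however, the LT-HSC median was 0.35 for the replication genes and 0.42 for the mitotic genes. On BM ST-HSC arrays a, b and c the replication medians were -0.23, -0.46 and -0.64, in the same order as for the mitotic genes but nearer to 0. In BM LT-HSC they were -0.23, -0.10 and -0.29, so BM ST-HSC a was not below every array outside its group. Without the narrow arrays, which leaves array a alone in BM ST-HSC, the replication medians were 0.32 in the average and 0.34 in ST-HSC.

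Markers of other blood and liver cells differed between the sites along with the mitotic genes. Of all genes 9.26% were called lower and 15.9% higher in FL in the average. There 9 of 10 neutrophil markers were lower in FL, with list means of 7.52 to 8.62 on FL arrays and 11.42 upwards on BM arrays. All 6 B cell markers (7.16 to 7.97 against 8.13 to 10.17) and 4 of 6 macrophage markers (6.59 to 6.93 against 7.23 to 8.49) were lower in FL. In ST-HSC alone 8 of 10 neutrophil, 2 of 6 B cell and 3 of 6 macrophage markers were called lower, against 1271 of 19505 genes. Of 7 hepatocyte markers 3 were higher and 1 lower (7.84 to 9.74 against 7.46 to 7.96), and of 7 erythroid markers 1 was lower (7.74 to 9.80 against 8.42 to 9.57). Log2 signals have no true 0, and whether any marker was absent cannot be read from them. Within BM ST-HSC the neutrophil means were 11.55, 11.93 and 11.60 on arrays a, b and c and the B cell means 8.13, 8.38 and 8.19. The erythroid means were 9.55, 8.99 and 8.43, highest on array a and lowest on array c. The macrophage means were 7.28, 7.47 and 7.34 and the hepatocyte means 7.63, 7.79 and 7.84. The mitotic medians of these arrays were -0.36, -0.85 and -1.16. The part of such cells in the mitotic differences was not tested.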

How the data were processed

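The 18 arrays were grouped by titles, source names and cell type labels. The deposited values are log2 signals, which the authors made with R 3.5.01 and oligo, per the submitters' processing notes. Background correction, normalization and summarization: not given in the sources used here. Of 22203 probe sets 19572 carried 1 gene symbol in the platform annotation. The brightest on average was kept per gene, which set aside 67, and 2631 with no or several symbols were left out.

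Limma 3.58.1 (lmFit and eBayes, R 4.3.3) fitted the group means to all 18 arrays for 13 comparisons, with Benjamini-Hochberg adjustment over 19505 genes. The script was tested on simulated data. The median standard error was 0.167 for 3 against 3 arrays, 0.0967 for the average and 0.237 for interactions, and the number of arrays limits this precision. No label says that the arrays of a group are of separate animals. The p-values thus measure only the spread between these samples, which may be technical.

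Full statistics are given for the 5 genes with the largest difference per comparison, up to 3 genes of other mitotic lists and 2 of each comparison or marker list. The genes and lists were chosen with earlier results of these data known. Same-letter arrays did not deviate together (45 pairs, r from -0.46 to 0.53, 11 above 0.1), so letters were not taken as pairs. Alternatives left out arrays, weighted, centred or requantiled them, added their spread or letter to the fit, dropped the dimmest 30% of genes or fitted only the groups compared.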

Additional observations from a re-analysis of the deposited data

How the results depend on the processing

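Over the 47 genes, 13 comparisons and all alternatives, 399 of 17531 differences turned sign, none of them past the threshold with all arrays or in the alternative. For the 5 genes with the largest difference in each comparison, of 695 values under alternatives other than leaving out 1 array, 601 kept their side of the threshold, 25 lost it and 69 gained it, and of 1170 with 1 array left out 1139 kept it, 5 lost it and 26 gained it. Counts of called genes that moved by more than 1.5 times follow. Without the 4 narrow arrays they were 10 in LT-HSC (from 1), 7 in ST-HSC (from 39), 5 in MPP (from 0), 1 for LT-HSC against MPP in FL, 2 for ST-HSC against MPP in FL, 3 for LT-HSC against MPP in BM (each from 0), 0 for LT-HSC against ST-HSC in BM (from 16) and 3 for ST-HSC against MPP in BM (from 36). Leaving out BM ST-HSC b and c, chosen after seeing the data, gave 23 in the average (from 35), 6 in LT-HSC, 4 in ST-HSC, 2 in MPP, 2 for LT-HSC against MPP in BM, 0 for LT-HSC against ST-HSC in BM and 0 for ST-HSC against MPP in BM. Array weights gave 6 in LT-HSC and 6 in MPP, against 3.39% and 10% of all genes called higher in that fit. The count was 4 for ST-HSC against MPP in FL and 3 for LT-HSC against MPP in BM, against 4.03% and 4.12% called lower. It was 44 for LT-HSC against ST-HSC in BM, against 14.2% called higher. For the interactions of ST-HSC with LT-HSC and with MPP it was 15 and 37, against 5.4% and 9.71% called higher. With the spread of each array as a covariate the counts were 5 in LT-HSC, 22 in ST-HSC, 2 in MPP and 25 for LT-HSC against ST-HSC in BM. Fitting only the groups compared gave 0 in LT-HSC, 8 in MPP (7 higher, 1 lower) and 0 for LT-HSC against ST-HSC in BM. Without the sgEzh2 arrays, which leaves FL MPP with 1 array assumed to vary like the others, they were 0 in LT-HSC and 5 for LT-HSC against ST-HSC in BM. In LT-HSC repeated quantile normalization gave 2, median centring 4 and leaving out the dimmest 30% of genes 4, and the last gave 1 for the interaction of ST-HSC with MPP. Apart from array weights and the fit without the 4 narrow arrays, the share of all genes called under these alternatives was not counted. Whether all genes shifted alike was therefore not tested. The cause of these shifts was not tested.

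Leaving out 1 array at a time gave 30 to 42 in the average, 0 to 6 in LT-HSC, 22 to 43 in ST-HSC, 0 to 2 in MPP, 0 to 1 for LT-HSC against MPP in FL, 3 to 34 for LT-HSC against ST-HSC in BM, 18 to 43 for ST-HSC against MPP in BM, and 0 to 10 and 0 to 17 for the interactions of ST-HSC with LT-HSC and with MPP. The highest counts in the average, in ST-HSC and for ST-HSC against MPP in BM came without BM ST-HSC a. Of all genes 19%, 17.9% and 11.3% were then called in the same direction. For the other arrays left out the share of all genes was not counted. The array letters are a shared name only. A replicate block on the letter gave 35 in the average, 37 in ST-HSC, 0 in LT-HSC, 0 in MPP, 14 for LT-HSC against ST-HSC in BM and 36 for ST-HSC against MPP in BM. The share of all genes was not counted in that fit either. With 3 arrays a group, differences near the median standard error of 0.167 could not be told from 0. Differences several times that size also went uncalled, such as 0.87 for Ncaph in LT-HSC.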

Other observations

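Outside mitosis proper, a list of genes that act in G1 joined CDK inhibitors with the cyclins and kinases they restrain, and its members went both ways. Of the 12 measured, 3 were higher and 4 lower in FL in the average over populations, against 15.9% and 9.26% of all genes, with a median of 0.00. Those furthest from 0 were a pair of inhibitors. Cdkn1a, the p53 target p21 that blocks CDK2, was lower in FL, with a difference of -1.58 ± 0.13 (limma adjusted p = 6.25e-08), and so was Cdkn2c, the CDK4 and CDK6 inhibitor p18, at -1.25 ± 0.09 (1.81e-08). In ST-HSC Cdkn1a read 7.98, 8.62 and 8.64 in FL and 10.29, 10.32 and 10.28 in BM, so that BM ST-HSC a, b and c were level where the mitotic genes differed between array a and the pair of narrow arrays. Cdkn1a was highest in BM MPP, at 11.14, 11.20 and 11.33, a group in which the mitotic genes were high as well. Cdkn2c read 7.05, 7.15 and 6.90 in FL ST-HSC and 8.16, 7.697 and 7.93 in BM ST-HSC.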
